A study of Mus musculus with 5 samples.

Results

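A list of 9 genes that handle retinoids, the vitamin A derivatives on which vision runs, was taken from the 33696 genes in the count tables, and all 9 were found by their symbols: *Rlbp1*, *Rgr*, *Rdh10*, *Rdh5*, *Rdh12*, *Rpe65*, *Lrat*, *Dhrs3* and *Rbp3*. They were chosen by name for what they do and not by a measured value, though earlier results of these data were known. Single-cell mRNA sequencing had been run on tdTomato+ cells sorted from adult mouse retinas 56 days after AAV injection, to ask what *Yap5SA* AAV had made of Müller glia (MG), the radial support cells of the retina. All mice carried *Glast-CreERT2*, a tamoxifen-activated Cre expressed in MG and in astrocytes, and the *Rosa26-Ai65* reporter, which makes tdTomato only after both Cre and Flp have acted. They were on a *C57BL/6J* background, were 12 to 20 weeks old, of both sexes pooled, and had been given tamoxifen. The ShH10 AAV carried a *Gfap* promoter, which also works in astrocytes, with *FlpO* and either *mKate2*, a red fluorescent protein used as the control, or *Yap5SA*, a YAP that cannot be switched off by the phosphorylation that normally restrains it. The cells came from 16 pooled retinas with *mKate2* AAV and 21 with *Yap5SA* AAV, and the libraries of a group are not stated to come from separate animals. The p-values by AAV measure the spread between libraries. Those of comparisons made within libraries measure the spread of the difference from library to library.

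The 5 libraries held 12317170 to 50938304 UMIs, the molecules counted once each. Replicates 1 and 2 of *Yap5SA* AAV shared 1361 cell barcodes, 99.8% of the smaller library, and replicate 2 was left out, whereas other pairs of libraries shared 0 to 7. Of 15293 barcodes in the 4 libraries used, 10749 had at least 1000 UMIs and at most 15% mitochondrial UMIs. Of these, 6566 were taken as MG because *Glul*, *Slc1a3*, *Clu* and *Aqp4* made up at least 0.4% of their UMIs. The labels call all sorted cells MG, but the MG gate held 89.0%, 52.1%, 71.7% and 57.7% of the cells in *mKate2* AAV replicate 1, *mKate2* AAV replicate 2, *Yap5SA* AAV replicate 1 and *Yap5SA* AAV replicate 3, which is the order of 4 values throughout. The median MG held 6208, 2926.5, 10696 and 2949.5 UMIs. The 8 MG markers summed to between 18318 and 20379 UMIs per 1000000 UMIs (CPM) in gated MG, with none at 0, a sum that includes the 4 genes of the gate and so in part restates it. In clusters made without the retinoid genes, 21.9% of the gated MG of *mKate2* AAV replicate 2 lay in clusters named MG and 74.6% in unnamed clusters, against 67.6% to 79.4% named MG in the other libraries. Unnamed clusters with 936 and 831 cells of *mKate2* AAV replicate 2 had MG as their best match, with all 8 MG markers detected. They stayed unnamed because *Gfap*, on the astrocyte marker list, was among their 10 top genes. The other cells in clusters carrying the name included 523 and 397 rod-like cells (*mKate2* AAV replicate 2 and *Yap5SA* AAV replicate 3) and 32, 916, 156 and 65 microglia-like cells. The file headers name Cell Ranger 8.0.0 for replicate 1 of each AAV (and the library left out) and 9.0.1 for *mKate2* AAV replicate 2 and *Yap5SA* AAV replicate 3.

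Photoreceptors see with a cis form of retinal that light turns into the all-trans form, and the visual cycle restores it. In the classical route, photoreceptors reduce all-trans-retinal to retinol, the pigment epithelium stores it as an ester (LRAT), isomerises it (RPE65) and oxidises it back to cis-retinal (RDH5), and binding proteins such as IRBP (*Rbp3*) and CRALBP (*Rlbp1*) carry retinoids between and within cells. MG contribute another route, in which CRALBP is a long-known MG protein and the opsin RGR, with RDH10, makes cis-retinal in the light. DHRS3 and RDH12 reduce retinal to retinol, DHRS3 in many tissues and RDH12 chiefly in photoreceptors.

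The 9 genes lie on 7 chromosomes of GRCm39 (GENCODE vM39): *Rlbp1* at chr7:79024602-79038176 (minus strand), *Rgr* at chr14:36756866-36770921 (minus), *Rdh10* at chr1:16175555-16203958 (plus), *Rdh5* at chr10:128749385-128759341 (minus), *Rdh12* at chr12:79255647-79269440 (plus), *Rpe65* at chr3:159304802-159330958 (plus), *Lrat* at chr3:82799886-82811288 (minus), *Dhrs3* at chr4:144619245-144654779 (plus) and *Rbp3* at chr14:33675960-33686173 (plus). *Rdh5* overlaps *Bloc1s1* on the same strand, so how its reads were divided is uncertain. The starts of 4 genes are shown because their levels followed 3 different patterns below. These were *Rlbp1* (MG and a pigment epithelium-like cluster), *Rgr* and *Rpe65* (chiefly that cluster) and *Rbp3* (photoreceptors). Each line holds the 250 bases before the RefSeq start and the first 10 bases of the transcript, 5′ to 3′ on the gene's strand, from RefSeq promoter windows of GRCm38.p6 that matched GRCm39 exactly at 1 place. In GRCm39 they cover chr7:79036766-79037025 (inside the longer GENCODE gene), chr14:36770962-36771221, chr3:159304568-159304827 and chr14:33675710-33675969. Capitals mark TAATCC or its complement GGATTA, the core bound by the photoreceptor and pigment epithelium factors CRX and OTX2, and CATGTG or its complement CACATG, an element bound by the pigment cell factor MITF.
Rlbp1: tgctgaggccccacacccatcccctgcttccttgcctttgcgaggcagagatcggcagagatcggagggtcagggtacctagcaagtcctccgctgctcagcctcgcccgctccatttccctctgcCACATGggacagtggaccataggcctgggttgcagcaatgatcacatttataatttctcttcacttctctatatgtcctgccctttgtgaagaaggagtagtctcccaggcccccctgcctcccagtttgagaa
Rgr: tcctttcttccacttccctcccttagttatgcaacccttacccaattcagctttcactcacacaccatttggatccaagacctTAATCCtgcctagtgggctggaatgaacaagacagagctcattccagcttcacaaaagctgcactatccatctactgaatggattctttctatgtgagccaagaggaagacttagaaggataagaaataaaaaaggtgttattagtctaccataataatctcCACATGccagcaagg
Rpe65: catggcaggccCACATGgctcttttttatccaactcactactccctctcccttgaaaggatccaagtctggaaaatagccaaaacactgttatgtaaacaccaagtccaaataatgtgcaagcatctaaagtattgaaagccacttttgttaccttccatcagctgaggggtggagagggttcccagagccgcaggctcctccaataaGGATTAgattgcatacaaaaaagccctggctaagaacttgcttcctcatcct
Rbp3: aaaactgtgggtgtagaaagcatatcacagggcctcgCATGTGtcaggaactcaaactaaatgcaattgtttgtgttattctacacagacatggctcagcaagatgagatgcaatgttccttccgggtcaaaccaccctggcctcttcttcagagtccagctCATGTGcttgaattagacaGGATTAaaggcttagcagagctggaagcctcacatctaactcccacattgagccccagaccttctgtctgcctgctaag
In the full windows of 300 bases, counted back from the RefSeq start, *Rpe65* had TAATCC at 42 and CATGTG at 239 bases, *Rgr* TAATCC at 167 and CATGTG at 5, *Rlbp1* CATGTG at 124, and *Rbp3* TAATCC at 69 and CATGTG at 213 and 88. *Rbp3* also had AACAAT, a SOX core (complement ATTGTT), at 185. The windows of *Lrat*, *Rdh5*, *Rdh12* and *Dhrs3* (the last with windows at more than 1 start) held none of the motifs searched. Of 32851 promoter windows of this length, 7.06% held TAATCC, 14.2% CATGTG, 10.7% AACAAT and 7.15% the palindrome CACGTG. No window of these 8 genes held CACGTG. A window of *Rdh10* was not analysed here. These are matches of letters on either strand and no evidence of binding.

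All of the 9 genes except *Dhrs3* fell into 3 patterns of cell type. *Rlbp1* and *Rdh10* were found in MG of all 4 libraries, *Rlbp1* at 1151 CPM or more and *Rdh10* at 163 CPM or more. Both were also high in pigment epithelium-like cells, where *Rdh10* stood above every MG library. *Rgr*, *Rpe65*, *Rdh5* and *Lrat* were highest in a small cluster with pigment epithelium markers. It gave most of their UMIs in the MG gate in each library that held it, and *mKate2* AAV replicate 1 held no such cell. *Rbp3* and *Rdh12* were highest in photoreceptors, while *Dhrs3* was spread over several types. UMIs were counted at the 3′ ends of transcripts, so CPM values are not per length, and levels are compared between cell types for a gene and not between genes.

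**Figure D1:**
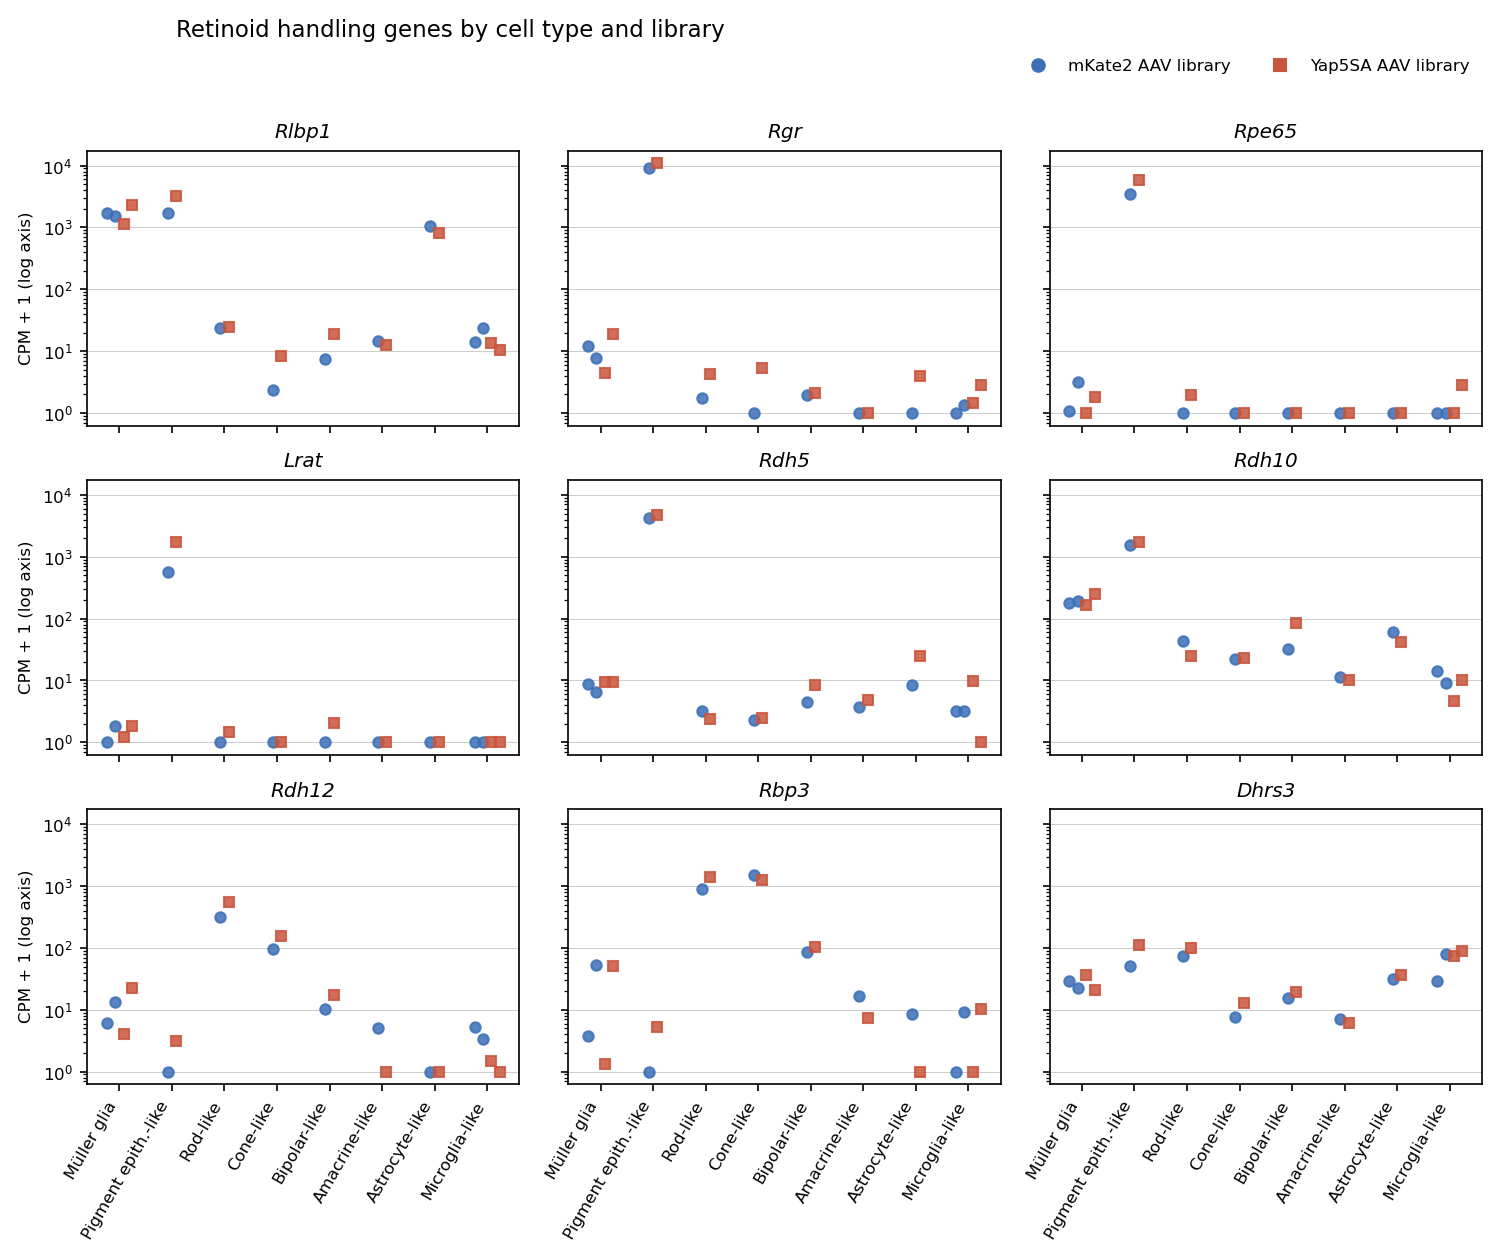
CPM of each of the 9 genes (panels, log axis after adding 1) by cell type, with MG outside the pigment epithelium-like cluster. Each point is the sum over the cells of 1 library with at least 20 such cells, circles for *mKate2* AAV and squares for *Yap5SA* AAV. *Rgr*, *Rpe65*, *Rdh5* and *Lrat* peak in pigment epithelium-like cells, *Rbp3* and *Rdh12* in rods and cones, and *Rlbp1* in pigment epithelium-like cells, MG and astrocyte-like cells.

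The gated MG held 81 of the 83 cells of a cluster named pigment epithelium-like from 9 markers (among them *Dct*, *Krt18* and *Krt8*) that include no retinoid gene. They were 0, 18, 3 and 60 cells by library, or 0.613%, 0.372% and 4.50% of the gate in the last 3. They passed the gate mainly on *Clu*, at 17434 and 10523 CPM in *mKate2* AAV replicate 2 and *Yap5SA* AAV replicate 3, where *Slc1a3* was at 14.5 and 2.14 CPM and *Aqp4* at 0 and 4.29. In the other gated MG, *Slc1a3* ranged from 1006 to 1490 CPM and *Aqp4* from 604 to 840. The pigment epithelium markers summed to 3572 and 3042 CPM in the cluster, with *Pmel* and *Best1* at 0 in the first library and *Best1* at 0 in the second. In gated MG outside it they summed to 31.5, 71.3, 52.5 and 32.8 CPM. The values below are therefore given with and without these cells, a choice made after the data were seen.

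*Rgr*, the light-driven opsin, reached 9130 and 11004 CPM in the 20 and 60 pigment epithelium-like cells of *mKate2* AAV replicate 2 and *Yap5SA* AAV replicate 3 (10067 ± 1325, SD, n = 2). *Rpe65*, the isomerase, stood at 3478 and 5809 CPM there (4643 ± 1648). These 2 libraries are 1 of each AAV, and the genes were high in both. *Rdh5*, which oxidises cis-retinol, stood at 4232 and 4725 CPM (4479 ± 349), and *Lrat*, the esterifying enzyme, at 572 and 1716 CPM (1144 ± 809). The genes were present cell by cell: in *Yap5SA* AAV replicate 3, the median pigment epithelium-like cell held 72 *Rgr*, 28.5 *Rpe65*, 31 *Rdh5* and 9 *Lrat* UMIs, and 60, 60, 59 and 60 of the 60 cells held any. In *mKate2* AAV replicate 2 the medians were 55.5, 11.5, 23 and 2.5 UMIs, and 17, 18, 20 and 13 of 20 cells held any. The lowest of the pigment epithelium-like libraries lay above the highest library of each other cell type for these 4 genes, and no test was run with 2 such libraries.

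The same few cells supplied most of what the MG gate held of these genes. In *mKate2* AAV replicate 2 they gave 90.9% of the *Rgr* UMIs in the gate, 91.9% of *Rpe65*, 84.6% of *Rdh5* and 83.2% of *Lrat*. In *Yap5SA* AAV replicate 3 the shares were 97.5%, 99.8%, 97.3% and 99.3%, and in *Yap5SA* AAV replicate 1, where the cluster had 3 cells, 69.2%, 100%, 56.4% and 77.8%. By contrast they gave 0.818%, 0.279% and 8.28% of *Rlbp1* and 5.60%, 0.761% and 30.5% of *Rdh10* in these 3 libraries (*mKate2* AAV replicate 2, *Yap5SA* AAV replicates 1 and 3). For *Dhrs3* the share was 25.6% in *Yap5SA* AAV replicate 3 and under 2% in the others, and for *Rdh12* and *Rbp3* it was at most 0.625% and 0.535%.

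**Figure D2:**
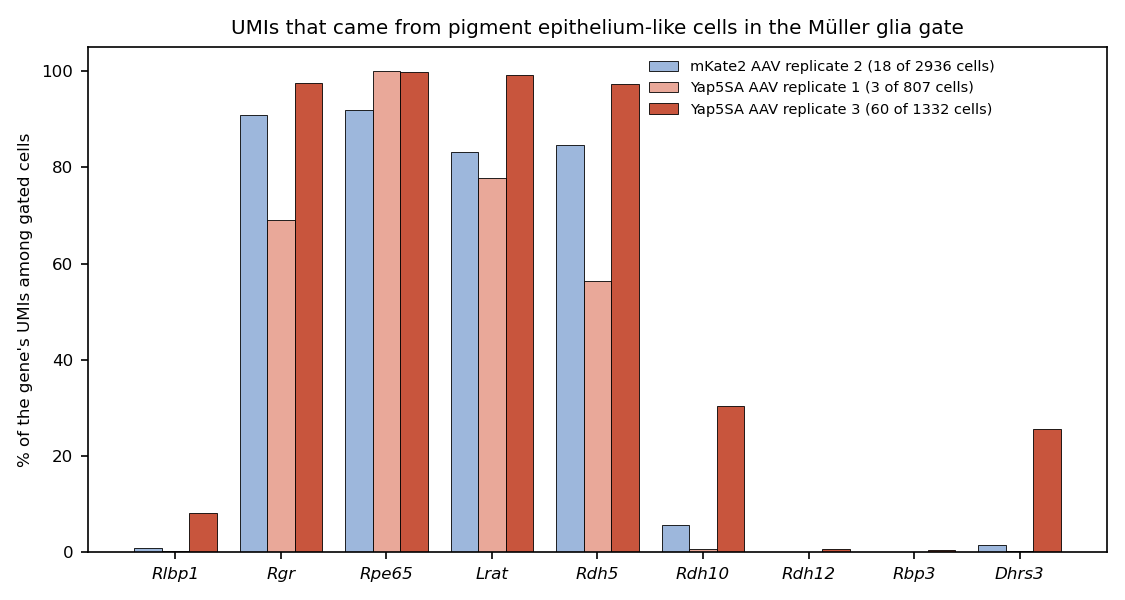
Share of the UMIs of each gene within the MG gate (vertical axis, percent) that came from pigment epithelium-like cells, by gene and library. For *Rgr*, *Rpe65*, *Rdh5* and *Lrat* it lies between 56.4% and 100% in the 3 libraries with such cells, and for *Rlbp1*, *Rdh12* and *Rbp3* it is at most 8.28%.

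*Rlbp1*, the gene of CRALBP, stood at 1727, 1522, 1151 and 2348 CPM in the gated MG (1687 ± 501, SD, n = 4 libraries) and at 1727, 1520, 1151 and 2289 CPM without the pigment epithelium-like cells (1672 ± 476). It was found in 1414 of 1491, 2665 of 2918, 751 of 804 and 1219 of 1272 MG outside that cluster, so it was general to MG and not held by a subset. Since the libraries differ in depth, each cell was thinned to 1000 UMIs, after which 76.5%, 75.1%, 60.8% and 84.5% of these MG held an *Rlbp1* UMI. In thinned microglia-like cells, which have no part in the visual cycle and show what free RNA gives, the shares were 0%, 2.07%, 0.64% and 0%. By mean level, pigment epithelium-like cells came first (1732 and 3280 CPM), then MG, then astrocyte-like cells (1038 CPM in *mKate2* AAV replicate 1 and 823 in *Yap5SA* AAV replicate 1). The ranges of the first 2 types overlapped, and the 2 astrocyte-like values lay below the lowest MG library. Rods, cones, bipolar, amacrine and microglia-like cells stood between 1.32 and 23.5 CPM. Rods, from 23.1 to 23.5 CPM, lay just above the highest microglia-like library (22.7 CPM). The other neighbours in this order overlapped.

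*Rdh10*, which oxidises all-trans-retinol, stood at 175, 204, 163 and 343 CPM in gated MG and 175, 194, 163 and 253 CPM without the pigment epithelium-like cells (196 ± 40.1, SD, n = 4). The highest library was *Yap5SA* AAV replicate 3 in both, with a smaller lead without those cells. In MG thinned to 1000 UMIs, 12.3%, 14.2%, 11.6% and 17.3% held a *Rdh10* UMI outside that cluster, against 3.12%, 0.66%, 0% and 0% of microglia-like cells. Pigment epithelium-like cells held 1565 and 1763 CPM, above every MG library. Bipolar-like cells (31.7 and 83.9 CPM), astrocyte-like cells (60.2 and 41.1), rods (43.3 and 23.5) and cones (21.0 and 21.9) followed below every MG library, with the first 3 types overlapping.

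Outside the cluster, MG kept a low level of *Rgr*: 11.3, 6.72, 3.43 and 18.1 CPM (9.90 ± 6.36, SD, n = 4), from 134, 126, 33 and 134 UMIs. In *mKate2* AAV replicate 1, which had no pigment epithelium-like cell, the 134 UMIs were spread over 95 of 1491 cells with at most 5 in a cell. In *mKate2* AAV replicate 2, 1 cell alone held 66 of the 126. Exact Poisson intervals at 95%, which cover counting error only, were 9.48 to 13.4 CPM for the first library and 15.2 to 21.5 for *Yap5SA* AAV replicate 3, whereas microglia-like cells held 0, 2, 1 and 1 UMIs (0, 0.36, 0.47 and 1.87 CPM). The count of 0 in the 32 microglia-like cells of *mKate2* AAV replicate 1 allows up to 6.49 CPM. Of the 95, 54, 25 and 89 *Rgr*-positive MG, 1, 8, 0 and 3 held a UMI of any of the 9 pigment epithelium markers. That is 14.8% in *mKate2* AAV replicate 2, against 1.82% of its other MG, and at most 3.37% in the other libraries, where 2.65%, 5.01% and 2.54% of the other MG did. *Rdh5* stood at 7.68, 5.60, 8.53 and 8.38 CPM in these MG (7.55 ± 1.35). *Rpe65* was left with 1, 41, 0 and 6 UMIs, 33 of the 41 in 1 cell, and *Lrat* with 0, 16, 2 and 6, which is at most 2.19 and 0.853 CPM.

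*Rbp3*, the gene of the secreted carrier IRBP, was highest in photoreceptors: 909 and 1382 CPM in rods (1145 ± 334, SD, n = 2, *mKate2* AAV replicate 2 and *Yap5SA* AAV replicate 3) and 1487 and 1257 in cones. Rods and cones overlapped. Bipolar-like cells stood at 85.6 and 102 CPM. *Rdh12*, the photoreceptor retinal reductase, stood at 312 and 550 CPM in rods (431 ± 168), 96.0 and 156 in cones and 9.29 and 16.1 in bipolar-like cells, and these 3 ranges did not overlap. *Dhrs3*, a retinal reductase of wider use, stood at 72.1 and 98.2 CPM in rods but 6.58 and 11.7 in cones. In microglia-like cells *Dhrs3* stood at 28.1, 78.7, 73.1 and 87.8 CPM, in pigment epithelium-like cells at 50.7 and 109, in astrocyte-like cells at 30.1 and 35.3 and in MG outside the pigment epithelium-like cluster at 27.7, 21.3, 35.3 and 20.0 (26.1 ± 7.0). Rods, microglia-like and pigment epithelium-like cells overlapped with each other, and so did MG, astrocyte-like cells and the lowest microglia-like library.

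In gated MG, *Rbp3* stood at 2.70, 52.1, 0.31 and 47.6 CPM and *Rdh12* at 5.07, 12.2, 3.11 and 20.3. The same 2 libraries were high for both, and they were those that held the rods. The summed 10 rod markers moved the same way in gated MG, at 109, 926, 8.82 and 1759 CPM, with *Pde6b* and *Nrl* at 0 in *Yap5SA* AAV replicate 1 and none at 0 in the other libraries. The UMIs were uneven over cells: 127 of the 2918 MG outside the pigment epithelium-like cluster in *mKate2* AAV replicate 2 held any *Rbp3*, and 25 of them held 10 or more, up to 125. The MG gate also took in cells of clusters named rod, 2 in *mKate2* AAV replicate 1, 20 in *mKate2* AAV replicate 2 and 13 in *Yap5SA* AAV replicate 3. The part of such cells and of free rod RNA in the *Rbp3* and *Rdh12* levels of MG was not tested.

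Summed counts of gated MG were compared with rod-like cells within *mKate2* AAV replicate 2 and *Yap5SA* AAV replicate 3 (edgeR's quasi-likelihood test with library as a block and Benjamini-Hochberg adjustment, 1 residual degree of freedom, both libraries with 9.0.1 headers). All 9 genes passed, 6 of them higher in MG and 3 lower, where 55.7% of the 14437 genes tested were called, 32.3% higher and 23.4% lower. *Rlbp1* was higher by 6.43 on the log2 scale (SE 0.44, edgeR adjusted p = 3.09e-07) and *Rdh10* by 3.09 (SE 0.37, adjusted p = 0.000112). The photoreceptor genes were lower in MG, *Rdh12* with a log2 difference of -4.62 (SE 0.29, edgeR adjusted p = 2.11e-07) and *Rbp3* of -4.39 (SE 0.38, adjusted p = 1.95e-06). *Dhrs3* was lower too, at -1.75 (SE 0.25, edgeR adjusted p = 0.000123). The 4 genes of the pigment epithelium-like cells had log2 differences of 7.37 (*Rgr*), 5.65 (*Rdh5*), 8.78 (*Rpe65*) and 7.83 (*Lrat*), and these values hold only while those cells stay in the gate. Without the cluster *Rgr* was at 2.88 (SE 0.53, edgeR adjusted p = 0.000652) and *Rdh5* at 1.92 (SE 0.57, adjusted p = 0.0133), *Rpe65* and *Lrat* had too few counts to be tested, and 4 genes were higher and 3 lower of 7, where 55.1% of all genes tested were called, 31.9% higher and 23.3% lower.

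MG were also compared with microglia-like cells in all 4 libraries by the same test, with the same MG, so the 2 comparisons are not independent. Of 8 genes tested 6 were higher in MG, 1 was lower and 1 did not pass, where 50.4% of 14403 genes were called, 29.5% higher and 21.0% lower. *Rlbp1* was higher by 6.36 (log2, SE 0.36, edgeR adjusted p = 4.18e-09), *Rdh10* by 4.36 (SE 0.34, adjusted p = 3.03e-08), *Rgr* by 6.99 (SE 0.55) and *Rpe65* by 7.81 (SE 0.68). Without the pigment epithelium-like cells *Rgr* was higher by 3.32 (SE 0.72, edgeR adjusted p = 0.00117) and *Rpe65* could not be tested, and 5 genes were higher, 1 lower and 1 not called of 7 (50.4% of all genes called, 29.3% higher and 21.1% lower). *Rdh5* did not pass, at 3.01 (SE 1.15, edgeR adjusted p = 0.0969) with these cells and 0.73 (SE 0.62, adjusted p = 0.345) without. *Dhrs3* was lower in MG by a log2 difference of -1.66 (SE 0.36, edgeR adjusted p = 0.00141). *Rbp3* was higher in MG at 2.08 (SE 0.51, edgeR adjusted p = 0.00279) and *Rdh12* at 1.96 (SE 0.69, adjusted p = 0.0247). Both calls were lost where the 5% of cells with the highest doublet score were left out of each library (edgeR, 0.38 with adjusted p = 0.638 for *Rbp3* and 1.36 with adjusted p = 0.123 for *Rdh12*). The *Rbp3* call was also lost without *mKate2* AAV replicate 2 (edgeR adjusted p = 0.0520), and the *Rdh12* call without that library (0.0943) or *Yap5SA* AAV replicate 3 (0.130). *Rdh5* passed with DESeq2 (3.26, adjusted p = 0.00231), and in edgeR without *Yap5SA* AAV replicate 1 (4.60, edgeR adjusted p = 0.0117) or replicate 3 (2.04, adjusted p = 0.0105).

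**Figure D3:**
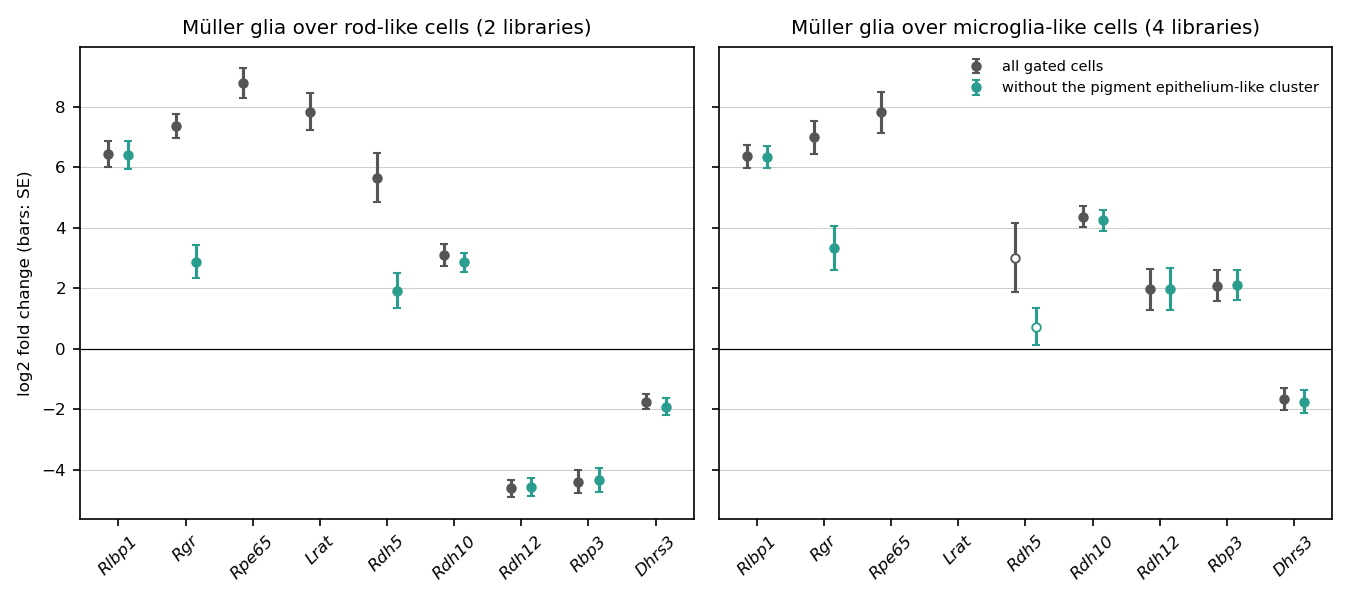
Log2 difference (vertical axis) of each gene between MG and rod-like cells (left) and between MG and microglia-like cells (right), with and without the pigment epithelium-like cells, where bars are standard errors of edgeR's fit, open points did not pass the test and genes not tested have no point. *Rlbp1* keeps its place with and without those cells, at 6.43 and 6.41 against rods, whereas *Rgr* moves from 7.37 to 2.88 against rods.

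The comparison of the study asks whether *Yap5SA* AAV changed MG. *Rlbp1* averaged 1624 ± 145 CPM with *mKate2* AAV and 1749 ± 846 with *Yap5SA* AAV (SD, n = 2 libraries each), a log2 difference of 0.03 (SE 0.48, edgeR adjusted p = 1.00). *Rdh10* averaged 190 ± 20.7 and 253 ± 127 CPM, a log2 difference of 0.32 (SE 0.44, edgeR adjusted p = 1.00). The 2 *Yap5SA* AAV libraries were the lowest and the highest for *Rlbp1*, so the groups overlapped. None of the 9 genes was called, and 0% of the 15309 genes tested were (0 with DESeq2 as well), with 32 genes at an unadjusted p under 0.05 in edgeR and 55 in DESeq2. On simulated counts of this design the test found 0.5% of genes changed by 2-fold and 69.5% of those changed by 8-fold, with 10 and 14 false calls. The 200 changed genes were picked at random from all genes tested and not for the level of the retinoid genes. Among such genes a change of 2-fold would mostly not have been called. The AAV groups overlapped in CPM for all 9 genes, where 15.2% of all genes tested did not overlap. Without the pigment epithelium-like cells 1 of 7 did not, against 15.5% of all genes: *Rdh5*, at 7.68 and 5.60 CPM with *mKate2* AAV and 8.53 and 8.38 with *Yap5SA* AAV (log2 difference 0.27, SE 0.39, edgeR adjusted p = 1.00).

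The pigment epithelium genes differed widely between single libraries, as did *Rbp3*. *Rgr* in gated MG was at 11.3 and 73.4 CPM with *mKate2* AAV and at 11.1 and 669 with *Yap5SA* AAV, a log2 difference of 2.86 (SE 2.06). *Rpe65* was at 0.084 and 26.9 against 5.81 and 345 CPM (3.52, SE 2.68), *Lrat* at 0 and 5.03 against 0.93 and 102 (4.15, SE 2.66) and *Rdh5* at 7.68 and 36.1 against 19.5 and 288 (2.67, SE 1.56). The high value was *Yap5SA* AAV replicate 3 for each, the library with 60 of the 81 pigment epithelium-like cells of the gate. Without these cells the log2 difference was 0.20 for *Rgr* (SE 0.83), 0.07 for *Rdh10* (SE 0.34), 0.00 for *Rlbp1* (SE 0.47), 0.09 for *Dhrs3* (SE 0.35), 0.37 for *Rdh12* (SE 1.05) and -0.30 for *Rbp3* (SE 2.23), and no gene of 15320 was called (0%).

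Within a Cell Ranger version there was 1 library of each AAV and no test. *Rlbp1* was lower with *Yap5SA* AAV by a log2 ratio of -0.58 among the 8.0.0 libraries and higher by 0.63 among the 9.0.1 libraries (0.59 without the pigment epithelium-like cells), on the log2(CPM + 1) scale. *Rdh10* went from -0.10 to 0.74 (-0.11 and 0.38 without them) and *Rgr* from -0.03 to 3.17 (-1.47 and 1.31 without). For these 3 genes the 2 pairs of libraries pointed in opposite directions. *Rdh5* was 1.24 and 2.96 (0.13 and 0.51 without those cells) and *Dhrs3* 0.34 and 0.23 (0.34 and -0.08 without). Measured as the share of thinned gated MG with a UMI, *Rlbp1* was found in 75.8% with *mKate2* AAV and 73.0% with *Yap5SA* AAV and *Rdh10* in 13.4% and 15.8% (means of 2 libraries each). The exact permutation test over libraries, two-sided, gave p = 1 for both, and with 2 against 2 it cannot go below 0.333. The groups overlapped in this share for all 9 genes, against 14.8% of 9017 genes that did not.

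**Figure D4:**
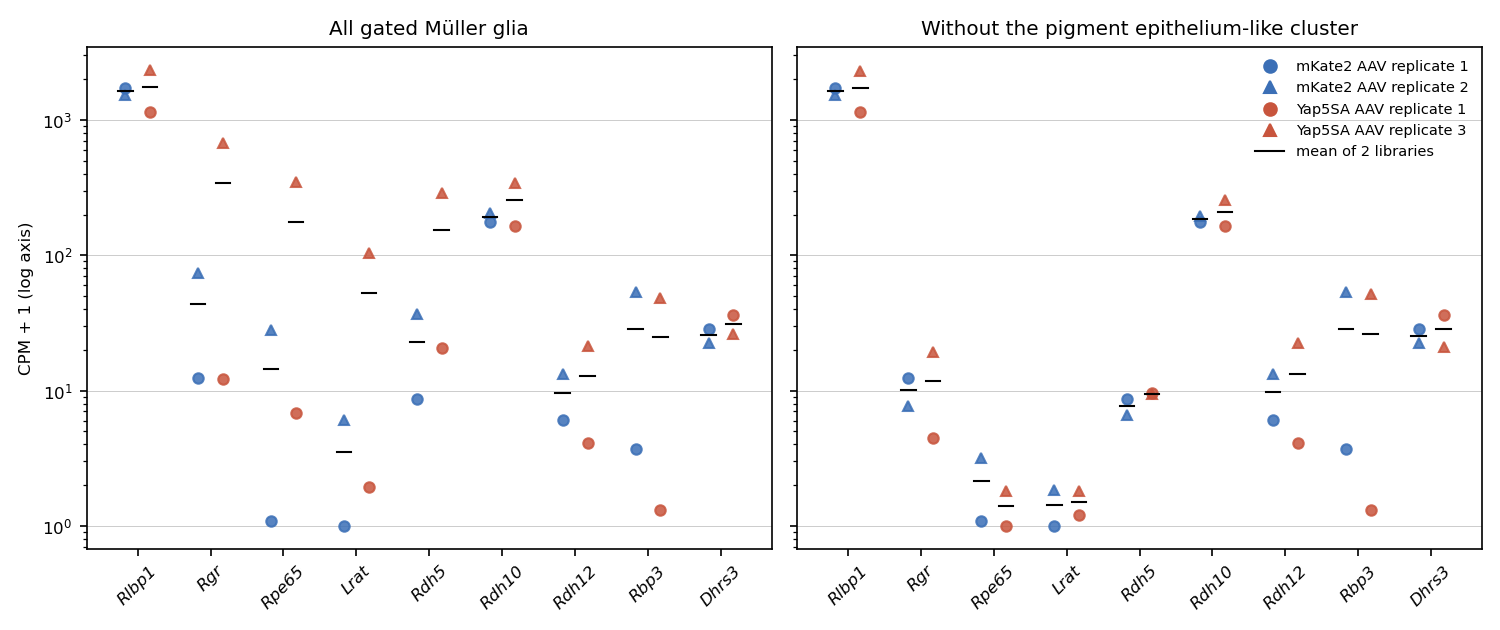
CPM of each of the 9 genes (log axis after adding 1) in the MG of each library by AAV, with (left) and without (right) the pigment epithelium-like cells, and black lines at the mean of 2 libraries. The single library that stands far above the others for *Rgr*, *Rpe65*, *Rdh5* and *Lrat* is *Yap5SA* AAV replicate 3, where *Rgr* falls from 669 to 18.1 CPM without those cells.

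MG differed widely in UMIs per cell, so gated MG with at least 5000 UMIs (838, 769, 589 and 345 cells) were compared with shallower MG of the same library. *Rlbp1* took a smaller share of the UMIs of deeper MG. Outside the pigment epithelium-like cluster it went from 1945 CPM in shallower to 1694 in deeper MG of *mKate2* AAV replicate 1, from 2106 to 1282 in *mKate2* AAV replicate 2, from 1243 to 1145 in *Yap5SA* AAV replicate 1 and from 3170 to 1864 in *Yap5SA* AAV replicate 3. The direction was the same in all 4, with log2 ratios of -0.20 and -0.12 among the 8.0.0 libraries and -0.72 and -0.77 among the 9.0.1 libraries. The fitted log2 difference was -0.66 over the gate (SE 0.20, edgeR adjusted p = 0.0285) and -0.68 without the cluster (SE 0.22, adjusted p = 0.0346). After thinning every cell of the gate to 1000 UMIs, pigment epithelium-like cells included, it was -0.41 (edgeR adjusted p = 0.0153). It did not pass with the split at each library's median depth (-0.47, adjusted p = 0.192) nor in 5 others of the 15 alternatives, over which it ranged from -0.78 to -0.41. Among these were the fits without *mKate2* AAV replicate 2 (-0.54, edgeR adjusted p = 0.171) and without *Yap5SA* AAV replicate 3 (-0.58, adjusted p = 0.0741). The clusters that held gated MG also differed in depth. *Rlbp1* was among the 10 leading genes of 1 of them, whose cells had a median of 2892 UMIs. Others named MG had medians from 2093 to 25148, so some were shallower still. The part of these clusters in the difference was not tested.

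*Rdh10* had the opposite direction, from 101 to 186, 158 to 209, 76.7 to 168 and 212 to 273 CPM in the 4 libraries, higher in deeper MG in all of them. It did not pass the test, at 0.50 over the gate (SE 0.19, edgeR adjusted p = 0.0623) and 0.44 without the cluster (SE 0.21, adjusted p = 0.129). With the cluster in the gate, *Rdh10* did pass after thinning (0.63, edgeR adjusted p = 0.00402) and without the 5% highest doublet scores (0.57, adjusted p = 0.0344). Of the 9 genes 1 was higher (*Rpe65*, at 2.36, edgeR adjusted p = 0.000629, too few counts without the pigment epithelium-like cells) and 1 lower, where 33.0% of 13389 genes were called, 17.9% higher and 15.1% lower. Without that cluster 0 of 7 were higher and 1 lower, against 32.9% of all genes, 17.8% higher and 15.1% lower. With the pigment epithelium-like cells in the gate, *Rgr* passed after thinning (2.60, edgeR adjusted p = 0.00718), *Rgr* and *Lrat* without *Yap5SA* AAV replicate 1 (1.66 and 1.099, adjusted p = 0.00321 and 0.0229) and *Rdh5* without *mKate2* AAV replicate 1 (1.41, adjusted p = 0.00723). These 3 genes also passed with no filter on low counts.

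**Figure D5:**
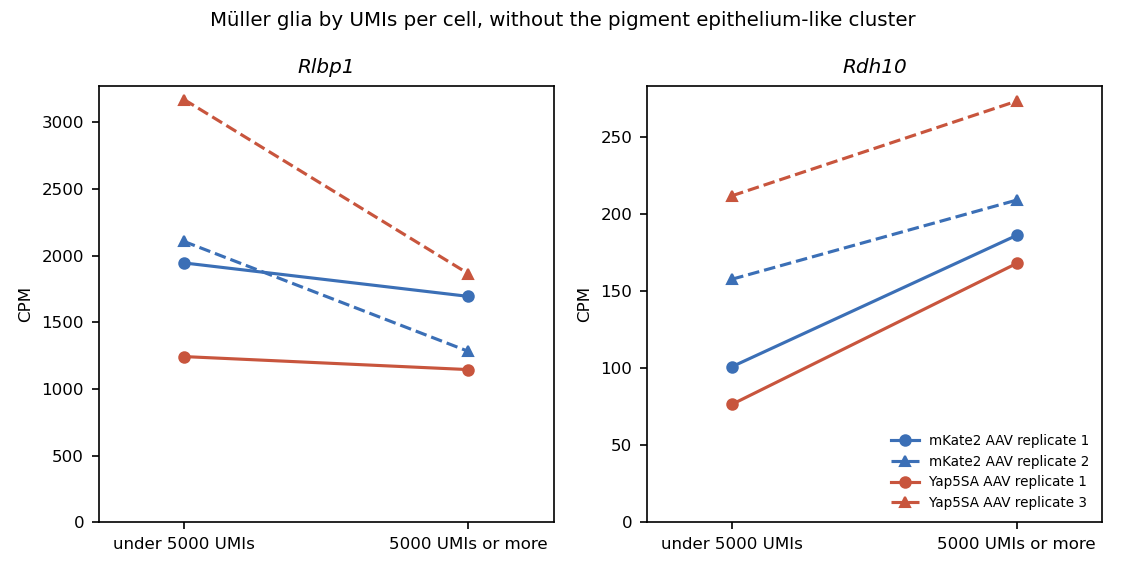
CPM of *Rlbp1* and *Rdh10* in shallower (under 5000 UMIs) and deeper MG of each of the 4 libraries, joined by lines, without the pigment epithelium-like cells. Every *Rlbp1* line falls, from 3170 to 1864 CPM in *Yap5SA* AAV replicate 3, and every *Rdh10* line rises.

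MG were also split at the median, in their own library, of the UMI share of 16 stress and immediate-early genes such as *Fos* and *Hspa1a*. Stress-high MG had medians of 7812, 3625, 14050 and 3512.5 UMIs, against 4842, 2507, 8307.5 and 2490.5 in stress-low MG. The split thus also separated cells by depth, in every library. No retinoid gene of 8 tested was called, where 0.324% of 13581 genes were (0.287% higher and 0.0368% lower), nor of 7 without the pigment epithelium-like cells (0.355% of all, 0.310% higher and 0.0444% lower). *Rlbp1* was at -0.18 (SE 0.18, edgeR adjusted p = 0.732) and *Rdh10* at 0.03 (SE 0.12, adjusted p = 0.938). *Rbp3* came closest, going from 0.796 to 4.11, 22.4 to 64.8, 0.499 to 0.178 and 22.5 to 63.3 CPM from stress-low to stress-high MG, higher in 3 of 4 libraries. Its log2 difference was 1.48 (SE 0.24, edgeR adjusted p = 0.0603), and DESeq2 called it (1.46, adjusted p = 0.00284). In edgeR it passed without *mKate2* AAV replicate 1 (adjusted p = 0.0430) or without *Yap5SA* AAV replicate 1 (0.0251), and with no filter on low counts (0.00364). It was smaller without the 5% highest doublet scores (0.64, edgeR adjusted p = 0.637), with the gate at 0.8% (0.63, adjusted p = 0.689) and after thinning (0.80, adjusted p = 0.187). *Rdh12* was at 0.81 (SE 0.19, edgeR adjusted p = 0.195), at 0.15 without the highest doublet scores (adjusted p = 0.865) and at 0.41 with the gate at 0.8% (adjusted p = 0.616).

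Of 46 other retinoid genes in the tables (transport, oxidation, retinoic acid synthesis and breakdown, receptors), 29 could be tested between MG and rods, of which 15 were higher in MG and 7 lower, where 32.3% of all genes tested were higher and 23.4% lower. Without the pigment epithelium-like cells 13 of 28 were higher and 7 lower. Among the higher ones with the smallest adjusted p were *Aldh1a1*, which makes retinoic acid (log2 difference 6.15), *Rrh*, the opsin peropsin (5.55), *Ttr*, the retinol transport protein transthyretin (8.03), *Cyp26a1*, which breaks retinoic acid down (6.64), and *Slc27a1*, a fatty acid transport protein (2.48). *Ttr* was another leading gene of the pigment epithelium-like cluster and was no longer called without it (2.33, edgeR adjusted p = 0.536). The lower ones were led by the photoreceptor genes *Abca4*, the retinal transporter of outer segments (-4.29), and *Rdh8*, the outer segment retinol dehydrogenase (-5.00), followed by *Awat2* (-2.60), *Slc27a4* (-1.31), *Rdh11* (-0.81) and *Rdh13* (-1.25). The median log2 difference was 5.65 over the 9 genes, 1.07 over the 29 and 0.10 over all genes tested, and without the pigment epithelium-like cells 1.92 over 7, 0.82 over 28 and 0.09 over all.

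Against microglia-like cells 10 of 27 such genes were higher in MG and 3 lower, with and without the pigment epithelium-like cells, where 29.5% of all genes tested were higher and 21.0% lower. The higher ones included *Ttr* (7.91, 3.10 without the pigment epithelium-like cells), *Slc27a1* (3.45), *Rrh* (5.94), *Rarb*, a retinoic acid receptor (4.24), and *Cyp26a1* (6.21). The 3 lower ones were *Bco2*, which cleaves carotenoids (-1.49), *Dhrs9* (-2.32) and *Rxrg* (-1.77). The medians were 3.69 over the 8 genes tested, 0.55 over the 27 and 0.27 over all genes, and 2.11 over 7, 0.56 over 27 and 0.27 over all without the pigment epithelium-like cells. With depth, 6 of 27 were higher in deeper MG (*Slc27a1* 0.72, *Rarb* 1.62, *Degs1* 0.83, *Rdh11* 0.98, *Cyp26a1* 1.11 and *Retsat* 1.03) and 6 lower, among them *Crabp1*, a retinoic acid-binding protein (-1.60), *Aldh1a1* (-0.94), *Dhrs4* (-0.94), *Rxra* (-0.74) and *Rxrb* (-0.65), where 17.9% of all genes tested were higher and 15.1% lower. Without the pigment epithelium-like cells 5 of 26 were higher and 7 lower, and *Retsat* was no longer called (edgeR adjusted p = 0.0562). The medians were 0.50 over the 9 genes, 0.44 over the 27 and 0.11 over all, and 0.12 over 7, 0.34 over 26 and 0.11 over all without those cells. By AAV 0 of 29 and by stress 0 of 27 were called, and the AAV medians were 0.32, 0.05 and -0.03 (0.09, -0.07 and -0.02 without those cells).

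Over 21 sums of a cell type in a library and 9279 genes, Pearson's r of log2(CPM + 1) named the genes with the pattern most like that of each retinoid gene, as a description, since the sums share libraries. For *Rlbp1* these were *Acot11* (r = 0.98), *Dcdc2a*, *Nr2e1*, *Mdk* and *Gstt3*, and for *Rdh10* *Tmem98* (0.90), *Sostdc1*, *Car14*, *Slc48a1* and *Veph1*. *Rpe65* and *Lrat* were themselves among the 5 most like *Rgr*, with *Gsta1* and *Slc7a10*. *Rdh5* was most like *Krt8* (0.96), *Fetub*, *Ins2* and *Gsta1*. Those of *Rpe65* included *Prdm16os*, *Gsta1*, *Dct* and *Lrat*, and those of *Lrat* *Gm57100*, *Sult1c1*, *Gip* and *Dsp*. *Rbp3* was most like *Gm26954* (0.97), *Crx*, *Aipl1* and *Mpp4*, and *Rdh12* like *Drd4* (0.95), *A930003A15Rik*, *AI847159*, *Impg2* and *Aipl1*. *Dhrs3* had no gene above 0.77, led by *Cst3* with *St3gal1*, *Hfe*, *Pes1* and *Uqcrh*.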

How the data were processed

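Single-cell gene expression had been measured in sorted tdTomato+ retinal cells of 5 libraries, 2 with *mKate2* AAV and 3 with *Yap5SA* AAV, using a 10x 3′ kit. The authors deposited raw counts of UMIs per gene and cell, made with Cell Ranger on GRCm39 and limited to barcodes called as cells. The labels name Cell Ranger 8.0.0, and the file headers 8.0.0 or 9.0.1. No normalization had been applied to the deposited counts.

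The 9 genes, the list of 47 other retinoid genes (46 found, *Rbpr2* being absent from the tables), the marker lists and the splits were chosen with earlier results of these data known. Cells with at least 1000 UMIs and at most 15% mitochondrial UMIs were kept. MG were taken by a gate at 0.4% of UMIs, and other types from Leiden clusters (resolution 1, 3000 variable genes, 30 components, 15 neighbours) made without the retinoid and mitochondrial genes. A cluster was named from its markers when their mean level was at least 0.25 of the highest among clusters, at least 3 were detected in 10% of cells and no other type led its 10 top genes. Of 33 clusters 9 stayed unnamed. Scrublet called 6 of 10749 cells (0.0558%), was judged not to have worked, and no doublets were removed. Leaving out the pigment epithelium-like cluster, or every cluster named after another type, was chosen after seeing the data.

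Counts were summed per library and cell type (at least 10 cells for a test, 20 for a level), passed through filterByExpr and TMM scaling, and fitted in edgeR (quasi-likelihood test), where a gene was called at a Benjamini-Hochberg adjusted p under 0.05 over all genes tested. SE is the log2 difference divided by the root of the F statistic. The call rate was tested on simulated data with 200 changed genes. DESeq2 was an alternative. Shares were compared after thinning to 1000 UMIs by an exact permutation test over libraries, and intervals are exact at 95% with 3 counts as the limit for a count of 0. All 9 genes are named, and of the other retinoid genes at most the 6 with the smallest adjusted p per direction, and the 5 most alike genes among those of at least 50 CPM in a sum. Promoter sequences are from RefSeq, and positions from GENCODE vM39. Proteins were not used here, and some genes that the rule names are not reported here. Versions were R 4.3.3, edgeR 4.0.16, limma 3.58.1 and DESeq2 1.42.0 for the fits, and Python 3.11.15, scanpy 1.11.5, leidenalg 0.10.2, anndata 0.12.19, scipy 1.17.1, numpy 2.4.6, pandas 2.3.3 and matplotlib 3.10.9 for the rest.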

Additional observations from a re-analysis of the deposited data

Results flagged for a closer look

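Of the levels of the 9 genes in groups of 4 libraries, 1 library stood apart by Dixon's test at the 95% level. *Dhrs3* on the log2(CPM + 1) scale was 4.86 in the microglia-like cells of *mKate2* AAV replicate 1 and between 6.21 and 6.47 in the other 3 libraries. That library held 32 microglia-like cells. Chance alone picks out about 1 in 20 such groups.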

How the results depend on the processing

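With 2 libraries per AAV, 1 residual degree of freedom against rods and 20 and 60 pigment epithelium-like cells in 2 libraries, low levels and small differences could not be resolved, and shares of cells depend on depth. No gene was called by AAV under any of 17 alternatives. The counts of called genes against rods (8 alternatives) and microglia-like cells (13) stayed within 1.5 times, and no retinoid gene changed direction in either. Against microglia-like cells *Rdh12* was not called under 4 of 13 alternatives (adjusted p up to 0.130) and *Rbp3* under 3 (up to 0.638). Leaving out *mKate2* AAV replicate 2 or *Yap5SA* AAV replicate 3 leaves 1 library with rods, and no such comparison was run. The cause of the changes below was not tested.

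By AAV, no direction was called. With all 5 libraries counted singly and a replicate block, 0 genes were called and the log2 differences were -0.64 for *Rlbp1*, -1.50 for *Rgr*, -0.34 for *Rdh10*, -0.032 for *Rdh5*, -1.47 for *Rdh12* and -0.75 for *Lrat*. The replicate numbers are not stated to pair libraries, so this block gives no paired comparison. With the Cell Ranger version as a term *Rlbp1* was at -0.074 and *Rdh12* at -0.042. Without the 5% highest doublet scores *Rlbp1* was at -0.024 and *Rbp3* at 0.32, without clusters named after other types *Rlbp1* was at -0.031, with the gate at 0.8% *Rdh12* was at -0.41, and under the paper's quality limits *Rbp3* was at 0.41. Leaving out 1 library at a time gave -0.61 to 0.46 for *Rlbp1*, -2.12 to 4.95 for *Rgr*, -0.34 to 0.77 for *Rdh10*, -0.35 to 4.36 for *Rdh5*, -1.63 to 1.24 for *Rdh12*, -1.43 to 10.86 for *Rpe65*, -1.64 to 12.02 for *Lrat*, -0.022 to 0.41 for *Dhrs3* and -6.62 to 3.18 for *Rbp3*.

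With depth, 1194 genes were called in MG of named MG clusters, 468 with the median split and 2596 after thinning, against 4420, and 2168 to 4628 when 1 library was left out. *Rgr* was at -0.23 in named MG clusters and *Lrat* at -0.20 with DESeq2. *Rdh12* was at -0.012 with DESeq2, -0.58 with the gate at 0.8%, -0.53 in named MG clusters, -0.0049 with at least 2000 UMIs, -0.83 without the highest doublet scores, -0.12 without clusters of other types and -0.16 with the median split. *Dhrs3* was at -0.0039 with the gate at 0.8% and *Rbp3* at 0.016 with the median split and -1.997 without the highest doublet scores (edgeR adjusted p = 0.00227), where it was called. Without 1 library *Rdh12* ranged from -0.31 to 0.24, *Dhrs3* from -0.12 to 0.45 and *Rbp3* from -0.87 to 0.43.

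By stress, 159 genes were called with no filter, 254 with DESeq2, 21 with the gate at 0.8%, 18 in named MG clusters, 26 without the highest doublet scores, 263 after thinning and 17 to 165 without 1 library, against 44. *Rlbp1* was at 0.014 after thinning. In named MG clusters *Rgr* was at 0.17 and *Rdh5* at 0.22, and *Rgr* was at 0.32 without clusters of other types. *Rdh10* and *Dhrs3* were at -0.048 and -0.14 with the gate at 0.8% and at -0.024 and -0.079 with at least 2000 UMIs. The share of MG with a UMI did not overlap between AAVs for 2 of the 9 genes when thinned to 2000 UMIs (13.3% of 11054 genes) and 2 when not thinned (6.92% of 13998). The difference in this share for *Rlbp1* was 1.56 percentage points when not thinned. Without 1 library it ranged from -14.94 to 9.35 points for *Rlbp1* and from -1.51 to 6.34 for *Rdh10*.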
